A study of Mus musculus with 3 samples.

Results

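Cells with at least 1 Foxp3 transcript made up 56 of the 697 sorted CD4 T cells, and most of them carried a single Foxp3 molecule. They were chosen by their own count: a cell belongs to the set when its deposited value for Foxp3 is above 0. Of the 56 cells, 11 had 2 or more unique molecular identifiers (UMIs, the random tags by which separate molecules are counted) and 45 had exactly 1. Each Foxp3 cell was set beside 3 cells of its own plate that had 0 Foxp3 UMIs and the nearest total of UMIs, which gave 168 matched cells. Because Foxp3 chose the cells, its own values are given as a description and support nothing.

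All cells came from C57BL/6 mice of 8 to 12 weeks, males and females pooled, and were freshly sorted. Spleen and lymph node cells were gated on live single cells by surface markers that included TCRb, CD4 and CD5, and on the absence of CD44, CD25 and CD8, the phenotype of naive CD4 T cells. The study spread single cells over the range of surface CD5, a protein whose level is used as a stand-in for how strongly a naive T cell senses self-ligands. Each cell went into its own well of a 384-well plate and was profiled by SORT-seq, which adapts CEL-Seq2 to plates and counts the 3' ends of transcripts. The 3 plates are the study's samples, and every group below was drawn from within them: Foxp3 cells with 2 or more UMIs, Foxp3 cells with exactly 1 UMI, and the matched cells of each.

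Foxp3 encodes the forkhead transcription factor that specifies regulatory T cells, the CD4 T cells that restrain immune responses to self. Regulatory T cells typically also carry Il2ra, the alpha chain of the interleukin 2 receptor, Ikzf2, which encodes the Ikaros-family factor Helios, and Ctla4, an inhibitory receptor. The protein of Il2ra is CD25, so the gate was set to leave out cells with surface CD25. Only 11 of the 56 cells had a UMI of any of these 3 markers, so the cells are called Foxp3 cells here and not regulatory T cells. Foxp3 lies on the plus strand of chromosome X at 7573644 to 7595245 (mm10, GENCODE annotation), and its 3' end overlaps Ccdc22, a gene on the minus strand at 7593809 to 7605517. Ccdc22 gave 2 UMIs in the Foxp3 cells and 4 in the matched cells.

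Depth was moderate, with a median of 3749, 5449 and 3952 UMIs per cell over all cells of plates 1, 2 and 3. Foxp3 cells had a median of 6530 UMIs in plate 2 and 5012 in plate 3, against 5401 and 3724 in all cells of those plates with 0 Foxp3 UMIs. After matching, the medians were 6559 and 4872 UMIs in the matched cells, and a Foxp3 cell and its matched cell differed by a median of 0.015 and at most 0.20 on the log2 scale. General T cell genes were present in every arm. Of the 11 cells with 2 or more Foxp3 UMIs, Cd4, Lck and Lat were detected in all, and Cd3d and Cd3g in 10 each. Thy1 was found in 9 (32 of 33 matched cells), Cd2 in 8 (25 of 33) and Cd3e in 7 (29 of 33). The list summed to 6045 CPM in these cells and 7245 CPM in their matched cells. Marker lists of other cell types had few UMIs in both arms. B cell genes summed to 7 UMIs in the 56 Foxp3 cells and 29 in the 168 matched cells, and CD8 genes to 3 and 17. Natural killer genes summed to 10 and 41, and erythroid genes to 0 and 2. The table holds 5 of 7 listed B cell genes, both CD8 genes, 3 of 6 natural killer genes and 2 of 4 erythroid genes. As counts scaled to the UMIs of the arm (CPM), these 4 lists lay between 0 and 33.9 in the Foxp3 cells and between 2.30 and 47.2 in the matched cells. The marker Ctla4 itself had 27.2 and 8.06 CPM. Only 2 genes of the myeloid list are in the table, Ctss and Cst3, with 231 CPM in the Foxp3 cells and 219 CPM in the matched cells. How far such transcripts bear on the values below was not tested. Wells were loaded with single cells and no doublet caller was run. A total of 173 well numbers were kept in both plates 2 and 3, whose barcodes are therefore shared between these libraries.

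The count of Foxp3 cells differed between the plates, which is given as a description. Plate 3 held 48 Foxp3 cells among 324, a share of 14.8% (exact 95% interval 11.1% to 19.2%). Plate 2 held 8 among 201, or 3.98% (1.73% to 7.69%). Plate 1 held 0 among 172 (exact 95% interval 0% to 2.12%), and taking up to 3 counts as possible allows a share of up to 1.74%. These intervals cover counting error only. The labels tie no animal to a plate, so plate and animal cannot be told apart.

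The number of Foxp3 molecules per cell differed between the plates as well. In plate 2, 6 of the 8 Foxp3 cells had 2 or more UMIs, with 10, 6, 5, 4, 4 and 2. In plate 3 only 5 of the 48 did, with 8, 6, 2, 2 and 2, and the other 43 cells had 1 each. A single UMI separates the cells just inside the set from those just outside it, and a second UMI separates the 45 cells from the 11. In sum the 8 cells of plate 2 held 33 Foxp3 UMIs and the 48 cells of plate 3 held 63. Thinning every cell to 2311 UMIs, which left out 104 cells, gave 7 of 172 cells (4.07%) in plate 2 and 21 of 249 cells (8.43%) in plate 3.

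**Figure D1:**
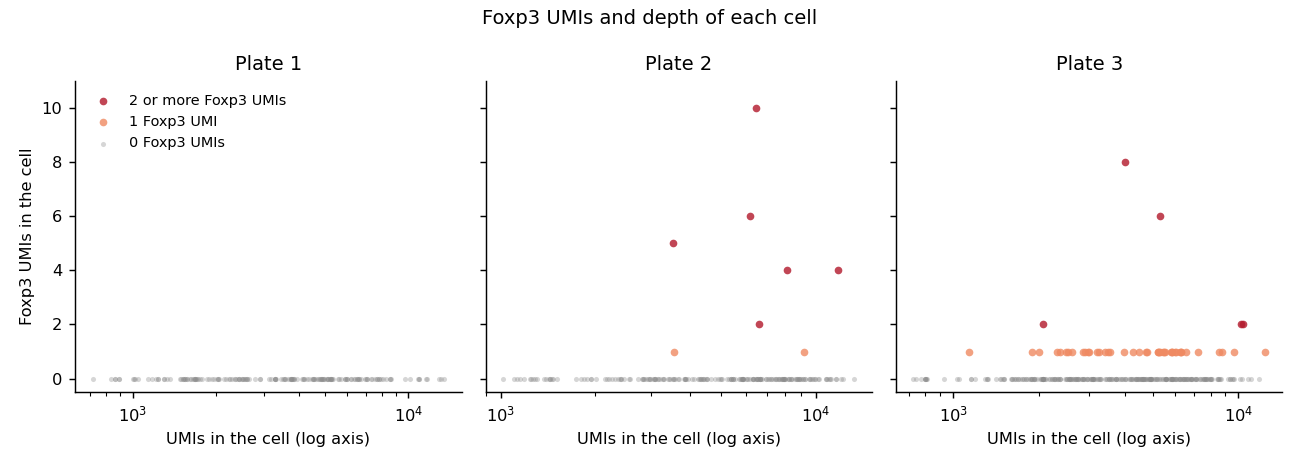
Foxp3 UMIs of each cell (vertical axis) against all UMIs of the cell (horizontal log axis), by plate. Each point is a cell, with dark red for 2 or more Foxp3 UMIs, orange for 1 and grey for 0. Plate 1 has no cell above 0, the highest cell of plate 2 has 10 UMIs, and the 43 cells of plate 3 with 1 UMI lie along nearly the whole range of depth.

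Depth did not order the Foxp3 cells simply. When the cells of plate 3 were put in 4 equal groups by total UMIs, the share with Foxp3 was 6.17% in the shallowest group (5 of 81 cells), then 16.0% (13 of 81), 21.0% (17 of 81) and 16.0% (13 of 81) in the deepest. The median depth of these groups was 1834, 3006, 4914 and 7246 UMIs. In plate 2 the shallowest group of 51 cells had no Foxp3 cell, and the next 3 groups of 50 cells had 2, 3 and 3. The deepest groups therefore did not hold the largest share in plate 3.

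Set beside genes of like abundance, Foxp3 was spread thinly in plate 3 and was concentrated in few cells of plate 2. Of the Foxp3-positive cells of plate 3, 10.4% had 2 or more UMIs, against a median of 28.8% for 1537 genes whose summed UMIs in plates 2 and 3 lay within 25% of the 96 UMIs of Foxp3. Only 19 of the 1537 genes had a share as low as that. In plate 2 the share was 75.0% for Foxp3 and a median of 38.1% for the other genes, of which 3 reached that of Foxp3. In plate 1 Foxp3 was found in 0 cells, against a median of 17 cells for these genes. Of 5252 genes with at least 60 UMIs in plates 2 and 3 together, 2 had no UMI in plate 1, namely Foxp3 and Serpinb6b, which was singled out after its values were seen. These counts describe the libraries and were not tested.

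The wells of the Foxp3 cells were looked at for sharing between neighbours and between plates, taking the number in each cell's name as the well number of the deposited primer sheet. In plate 3 the Foxp3 cells lay in 16 rows and 20 columns of the plate. A well with 2 or more UMIs was a direct or diagonal neighbour of 6 of the 43 wells with 1 UMI (14.0%), against 25 of the 276 wells with 0 UMIs (9.06%). Between the plates, only well 329 had a Foxp3 UMI in both plate 2 and plate 3, with 1 in each, and no well with 2 or more in a plate had any in the other. The closest cell barcodes between a well with 1 UMI and a well with 2 or more in plate 3 differed at 2 of 8 bases, and they are shown because a misread barcode would move a molecule between such wells. The barcodes below come from the primer sheet, with the differing bases in capitals.
plate 3, well 177, 1 Foxp3 UMI: CcccTatt
plate 3, well 298, 2 Foxp3 UMIs: AcccCatt
Only 1 of the 43 wells with 1 UMI lay within 2 mismatches of a well with 2 or more (2.33%), against 1 of the 276 wells with 0 UMIs (0.362%). Whether molecules moved between wells was not tested beyond these counts.

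The 11 cells with 2 or more Foxp3 UMIs were a mixed set when looked at one by one. Of these, 6 had at least 1 of the markers Il2ra, Ikzf2 and Ctla4, 4 had at least 2 and 3 had all of them. The other 5 had none. Wells below are those of the primer sheet.

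In plate 2, well 376 had 6 Foxp3 UMIs together with 6 of Il2ra, 2 of Ikzf2, 1 of Ctla4, 5 of Tnfrsf18 (the receptor GITR) and 6 of Folr4 (Izumo1r, folate receptor 4, a surface protein of regulatory T cells). Well 346 had 4 Foxp3 UMIs with 2 of Il2ra, 5 of Ikzf2, 1 of Ctla4 and 2 of Tnfrsf18. Well 162, the deepest of the 11 with 11771 UMIs in all, had 4 Foxp3 UMIs with 1 of Il2ra, 16 of Ikzf2, 8 of Folr4, 6 of Lrrc32, which encodes the docking protein of latent TGF-beta, and 4 of Ebi3, a cytokine subunit. Each of these 3 cells carried at least 2 of the 3 markers. Well 235, with 2 Foxp3 UMIs, had 1 of Il2ra, 1 of Tnfrsf18 and 7 of Folr4. Well 378 had the most Foxp3 UMIs of any cell, 10, and none of the 3 markers. Well 224 had 5 Foxp3 UMIs and no UMI of any of the 29 regulatory T cell genes in the table. High Foxp3 and the other markers thus did not always lie in the same cell of plate 2.

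In plate 3, well 71 had 8 Foxp3 UMIs with 2 of Il2ra, 1 each of Ikzf2, Ctla4 and Tnfrsf18, and 13 of Folr4. Well 298, with 2 Foxp3 UMIs among only 2063 UMIs, had 1 of Ctla4 and 2 of Tnfrsf18. Wells 362, 54 and 365 had 6, 2 and 2 Foxp3 UMIs and none of the 3 markers, though wells 362 and 365 had 1 and 2 of Tnfrsf18. Well 71 was the only cell of plate 3 with all 3 markers.

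Against cells of the same plate and depth, the 3 markers were found more often in the cells with 2 or more Foxp3 UMIs. At least 1 marker was seen in 6 of 11 such cells (54.5%, exact 95% interval 23.4% to 83.3%), against 3 of 33 matched cells (9.09%, 1.92% to 24.3%). Within plate 2 this was 4 of 6 cells against 1 of 18 matched cells, and within plate 3 it was 2 of 5 against 2 of 15. At least 2 markers were seen in 4 of the 11 cells and in 0 of the 33 matched cells. Taking up to 3 counts as possible, the latter allows a share of up to 9.09%. Cells are not replicates and the intervals cover counting error only, so no test was made over cells.

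Of the 3 markers, Il2ra had the widest gap in share between the Foxp3 cells and the matched cells. In plate 2 Il2ra was found in 4 of the 6 cells with 2 or more UMIs and in none of the 193 cells with 0 Foxp3 UMIs. Taking up to 3 counts as possible, the latter allows a share of up to 1.55%. In plate 3 it was found in 1 of 5 cells with 2 or more UMIs and 3 of 43 with 1 UMI, against 3 of 276 cells with 0 (1.09%). Plate 1, with no Foxp3 cell, had Il2ra in 2 of 172 cells (1.16%). Il2ra RNA thus appeared in sorted CD25-negative cells, and 8 of the 56 Foxp3 cells held it (14.3%), against 2 of the 168 matched cells (1.19%). Thinned to 2311 UMIs, the shares were 9.62% and 0.641%.

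Ikzf2 and Ctla4 had smaller gaps. Ikzf2 was found in 4 of 11 cells with 2 or more Foxp3 UMIs against 2 of 33 matched cells, but in 3 of 45 cells with 1 UMI (6.67%) against 7 of 135 matched cells (5.19%). In plate 1 it was found in 11 of 172 cells (6.40%). Ctla4 was found in 4 of 11 cells against 0 of 33, and in 2 of 45 cells (4.44%) against 3 of 135 (2.22%). The shares of both genes in the cells with 1 UMI lie inside the intervals of their matched cells. For comparison, some genes of other lineages were found at such low shares too. In plate 3, Cd79a of B cells was found in 2.08% of the Foxp3 cells and 2.08% of the matched cells, and Cd8b1 in 6.25% and 4.86%, at median depths of 5012 and 4872 UMIs. Others were in none of these 48 Foxp3 cells: Cd8a (1.39% of the matched cells), Cd79b (0.694%), Ms4a1 (1.39%) and Gzma (0%).

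**Figure D2:**
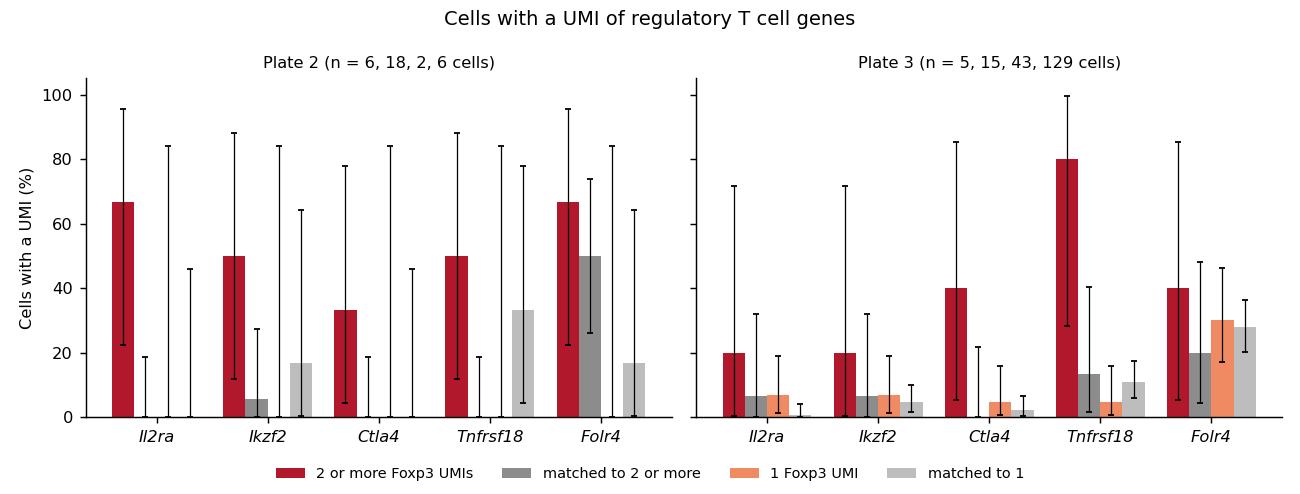
Share of cells with a UMI of Il2ra, Ikzf2, Ctla4, Tnfrsf18 and Folr4 (vertical axis, percent) in plates 2 and 3. Bars are, from left to right, cells with 2 or more Foxp3 UMIs, their matched cells, cells with 1 Foxp3 UMI and their matched cells, with the number of cells above each panel, and lines are exact 95% intervals for counting error. Tnfrsf18 reached 80.0% of the cells with 2 or more UMIs of plate 3, against 13.3% of their matched cells.

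Tnfrsf18 was found at different shares in the cells with 2 or more Foxp3 UMIs and in those with 1. It was found in 7 of the 11 cells with 2 or more UMIs (63.6%), against 2 of 33 matched cells (6.06%). Among cells with 1 UMI it was found in 2 of 45 (4.44%), against 16 of 135 matched cells (11.9%). Folr4 was found in 6 of 11 cells against 12 of 33, and in 13 of 45 cells with 1 UMI (28.9%) against 37 of 135 (27.4%). Folr4 is widespread in these naive cells, with UMIs in 38.4% of the cells of plate 1, so its presence alone does not set Foxp3 cells apart.

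The 45 cells with a single Foxp3 UMI differed less from their matched cells in how many cells held a marker, though not in the summed UMIs of Il2ra. At least 1 of the 3 markers was seen in 5 of them (11.1%, 3.71% to 24.1%), against 9 of 135 matched cells (6.67%, 3.09% to 12.3%). At least 2 markers were seen in 3 of the 45 and in 2 of the 135. The 5 cells were all in plate 3. Well 46 stood apart from the rest, with 12 UMIs of Il2ra, 10 of Ikzf2, 12 of Folr4 and 10 of Il2rb, the beta chain of the interleukin 2 receptor. Well 223 had 1 of Il2ra, 1 of Ikzf2 and 7 of Folr4, and well 351 had 2 of Ikzf2 and 3 of Ctla4. Wells 173 and 251 had a single UMI of a single marker. Summed over the 45 cells, Il2ra had 14 UMIs against 1 in the matched cells, a ratio of 41.3 (6.28 to 1746, counting error only), and 2 against 1 without well 46, a ratio of 5.90 (0.307 to 348). Ikzf2 had 13 UMIs against 14, a ratio of 2.74 (1.19 to 6.28), and 3 against 14 without well 46, a ratio of 0.632 (0.116 to 2.26). A single cell thus held most of these UMIs. The intervals of the share with at least 1 marker overlap between the cells with 1 UMI and their matched cells.

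Cells without a Foxp3 UMI rarely had the markers together. In plate 3, well 106 had 4 UMIs of Ikzf2, 1 of Ctla4 and 6 of Folr4, with 10 regulatory T cell genes detected in all. Well 121 had 3 of Ikzf2 and 5 of Ctla4, with 8 of the genes. No cell with 0 Foxp3 UMIs in plates 1 and 2 had 2 of the 3 markers. Both wells of plate 3 are among the matched cells, which raises the matched values there.

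The wider list of regulatory T cell genes, which includes the 3 markers, had higher medians in the cells with 2 or more UMIs than in their matched cells. The difference from the cells with 1 UMI was not tested over this list. Of its 36 genes 29 are in the table, among them Icos, Nrp1, Gpr83 and Samhd1, and Foxp3 is not counted in it. Cells with 2 or more UMIs had a median of 7.5 of the genes in plate 2 and 4 in plate 3, against 3 and 2 in their matched cells. Cells with 1 UMI in plate 3 had a median of 2, as had their matched cells. The ranges overlap: 0 to 12 genes in the 6 cells of plate 2, against 1 to 5 in the 18 matched cells. Of the 29 genes, 26 had a UMI in the Foxp3 cells and 25 in the matched cells. Cd83, Ccr4 and Prdm1 had none in the Foxp3 cells.

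**Figure D3:**
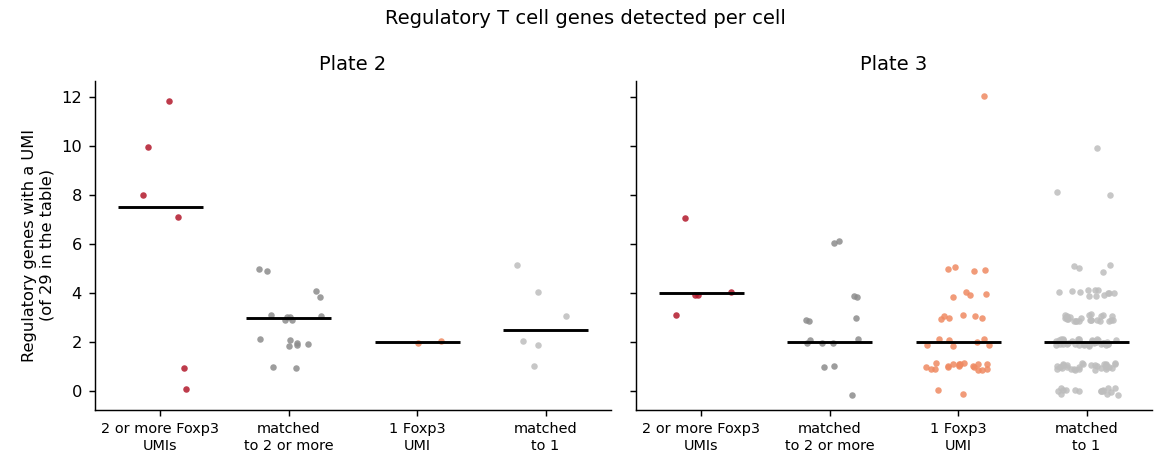
Number of regulatory T cell genes with a UMI in each cell (vertical axis, of 29 genes) for cells with 2 or more Foxp3 UMIs, their matched cells, cells with 1 UMI and their matched cells, in plates 2 and 3. Points are cells, spread a little for sight, and black lines are medians. In plate 2 the 6 cells with 2 or more UMIs fall in 2 sets, 4 cells at 7 to 12 genes and 2 cells at 0 and 1.

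Summed over cells, the list had a level of 2911 CPM in the cells with 2 or more Foxp3 UMIs of plate 2, against 1214 CPM in their matched cells. In plate 3 it had 1909 CPM, against 888 CPM. For the cells with 1 UMI of plate 3 the sum was 1095 CPM, against 940 CPM in their matched cells. Plate 1 as a whole had 1148 CPM. The cells with 2 or more UMIs thus lay above their matched cells in both plates, and above the level of plate 1.

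A small number of cells carried much of this signal. Over all 56 Foxp3 cells the list was 1.43 times its level in the matched cells (interval 1.27 to 1.61, from counting error only). Without the highest cell of each plate for the list, well 162 of plate 2 and well 46 of plate 3, and without their matched cells, it was 1.08 times (0.941 to 1.23). Among the cells with 2 or more UMIs alone the ratio was 2.30 (1.89 to 2.80), and 1.88 (1.49 to 2.37) without well 162. Leaving out these wells was chosen after seeing the data, and the highest matched cells for the list stayed in, which lowers these ratios.

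The whole table was then compared between Foxp3 cells and matched cells, with Foxp3 itself left out of the sums. Counts were added up per plate and arm, and the 4 sums were fitted with edgeR's quasi-likelihood method with plate as a block. Of 3301 genes tested, 0 passed a Benjamini-Hochberg adjusted p of 0.05 in edgeR (0%), and 51 had an unadjusted p under 0.05 (1.54%), 13 of them higher in Foxp3 cells (0.394%). The DESeq2 Wald test, run without a filter on low counts, gave 12140 genes an adjusted p and called 0 as well. It had 19 genes below the same unadjusted p. Since the labels tie no animal to a plate, these p-values measure the spread between sums of cells, which may be technical.

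Genes of the interleukin 2 receptor and Helios had the smallest p among those higher in Foxp3 cells. Of the 3301 genes, Il2ra ranked 1, Ikzf2 ranked 2 and Il2rb ranked 4 by p. The filter on low counts keeps a gene that is high in a single arm, and these genes passed it through the Foxp3 cells alone. Their ranks and signs are therefore a description and support nothing. Il2ra had 10 and 16 UMIs in the Foxp3 cells of plates 2 and 3, against 0 and 2 in the matched cells. Its level was 124 ± 80.6 CPM in Foxp3 cells and 1.42 ± 2.01 CPM in matched cells (SD, n = 2 plates each). Every Foxp3 sum was above every matched sum. Over both plates the ratio was 38.3 (9.60 to 333, counting error only), and edgeR's fitted log2 fold change, which with a sum at 0 depends on its prior count, was 5.09 (SE 1.11, adjusted p = 0.9999).

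Il2ra passed in 2 settings that used more cells without Foxp3. With 5 matched cells for each Foxp3 cell, edgeR gave an adjusted p of 0.0207. With all cells of the plate that had 0 Foxp3 UMIs it gave 0.00488, and in both settings Il2ra was the only gene called. Here too Il2ra passed the filter on low counts through the Foxp3 cells alone, so these calls are a description and support nothing. These settings also tested more genes, 3967 and 6875, after the same filter on low counts. Without wells 162 and 46 it had 13 UMIs in Foxp3 cells and 2 in matched cells, a ratio of 19.2 (4.34 to 175), and it was too low to be tested.

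Ikzf2 had 23 and 14 UMIs in the Foxp3 cells of plates 2 and 3, against 2 and 15 in the matched cells, with a log2 fold change of 2.79 (SE 0.82, edgeR adjusted p = 0.9999). Its ratio over both plates was 6.42 (3.53 to 12.2), and 1.91 (0.807 to 4.32) without wells 162 and 46, whose 16 and 10 UMIs made up most of its counts. Il2rb had 3 and 14 UMIs in Foxp3 cells, against 2 and 2 in matched cells, with a log2 fold change of 3.30 (SE 1.09, edgeR adjusted p = 0.9999). Its ratio over both plates was 12.5 (4.09 to 51.2), and 5.16 (1.31 to 24.0) without the same wells. Ctla4 had 2 and 6 UMIs in Foxp3 cells, against 0 and 7 in matched cells, and was too low to be tested.

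No other gene stood as far from 0 among those higher in Foxp3 cells, and none of those below passed the test. Pip5k1c, a kinase that makes the membrane lipid PIP2, had 17 and 71 UMIs in the Foxp3 cells of plates 2 and 3, against 11 and 107 in 3 times as many matched cells, with a log2 fold change of 1.36 (SE 0.46). For Zfp292, a zinc finger protein, the log2 fold change was 1.42 (SE 0.53), and for Slc35c1, the Golgi transporter of GDP-fucose, 1.35 (SE 0.56). These 3 genes had a higher level in the Foxp3 cells of both plates, which the rule for naming genes required. In plate 2 a single cell held 9 of the 17 UMIs of Pip5k1c, 9 of 12 of Zfp292 and 9 of 11 of Slc35c1. Zfp292 was found there in 2 of 8 Foxp3 cells, against 9 of 24 matched cells.

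Among genes lower in Foxp3 cells, again without passing, the smallest p belonged to Sec23b, a subunit of the vesicle coat that leaves the endoplasmic reticulum. It had 0 and 2 UMIs in the Foxp3 cells, against 14 and 49 in the matched cells. Cep95, which encodes a centrosomal protein, had 0 and 3, against 15 and 46. Larp4, an RNA-binding protein that stabilises mRNA, had a log2 fold change of -2.38 (SE 0.90), the cyclin gene Ccni one of -1.02 (SE 0.39) and the ribosomal protein gene Rpsa one of -0.37 (SE 0.14). All 5 were lower in the Foxp3 cells of both plates, which the rule for naming genes required. Sec23b, Cep95 and Larp4 passed the filter on low counts through the matched cells alone, so their ranks and signs support nothing.

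**Figure D4:**
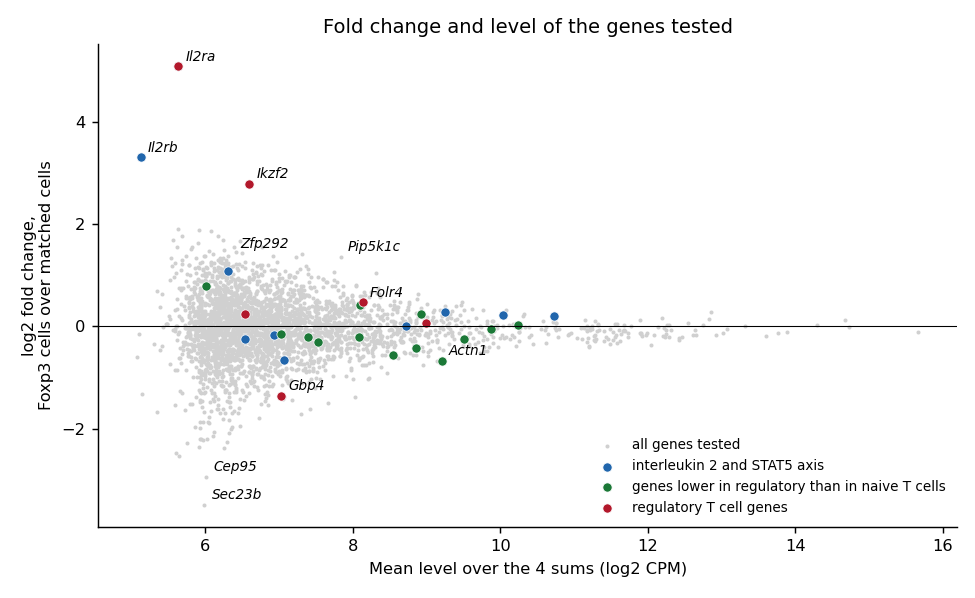
Fitted log2 fold change of Foxp3 cells over matched cells (vertical axis) against the mean level of the gene over the 4 sums (horizontal axis, log2 CPM) for the 3301 genes tested. Grey points are all genes, and colours mark 3 gene lists, with Il2ra, which is on the interleukin 2 list too, drawn in the colour of the regulatory list. Il2ra, Il2rb and Ikzf2 lie above all other genes, and no gene passed an adjusted p of 0.05.

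By lists, most tested members of the regulatory and interleukin 2 lists had positive values, and no member of any list passed the test in either direction. Only 6 of the 29 regulatory genes passed the filter on low counts, which keeps a gene that is high in a single arm, so these 6 are not a fair sample of the list. Of the 6, 5 had a positive log2 fold change and the median was 0.35, against -0.04 over all genes tested, with 2 at an unadjusted p under 0.05 (1.54% of all genes). Gbp4, an interferon-inducible GTPase, was the member with a negative value, -1.36 (SE 0.67), and Folr4 had 0.47 (SE 0.38). Of 15 genes of the interleukin 2 and STAT5 axis, 11 were tested, 7 were positive and the median was 0.21. Socs1, a feedback inhibitor of cytokine signals, stood at 1.08 (SE 0.77). Il2ra is on both lists. Il2ra and Il2rb, the members of smallest p of the interleukin 2 list, passed the filter only through the Foxp3 cells. The tested members are thus not a fair sample of this list either. The common gamma chain gene Il2rg, also of this list, had 475 UMIs in the Foxp3 cells and 1350 in the matched cells, a ratio of 1.04 (0.933 to 1.15). The plates differed in direction, with 1665 CPM in the Foxp3 cells of plate 2 against 1032 CPM in the matched cells, and 1599 against 1677 CPM in plate 3. Its fitted log2 fold change was 0.21, and 0.69 without plate 3.

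Genes known to be lower in regulatory than in naive T cells had 9 negative values among 13 tested, with a median of -0.21. The summed level of the list differed in direction between the plates. It was 3849 CPM in the Foxp3 cells of plate 2 against 5070 CPM in the matched cells. In plate 3 it was 5976 against 5412 CPM. The members of smallest p were Actn1, an actin crosslinker, at -0.68 (SE 0.37), Npc2, a lysosomal cholesterol carrier, at -0.56 (SE 0.35), and Il7r, the interleukin 7 receptor, at -0.43 (SE 0.32). Dapl1, another member, stood at 0.42 (SE 0.41). Actn1 differed between the plates, with 163 CPM in the Foxp3 cells of plate 2 against 597 CPM in the matched cells, and 606 against 609 CPM in plate 3.

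Over all genes tested, 1536 of 3301 values were positive, with a median of -0.04, and the remaining lists are set beside it. Of 30 factors that act with or upstream of Foxp3, 20 were tested, 9 were positive and the median was -0.07, with Bach2, a repressor that keeps T cells quiescent, at -1.03 (SE 0.52), Foxo1 at -0.39 (SE 0.25), Ikzf1 at 0.39 (SE 0.28) and Foxp1 at 0.32 (SE 0.29). Genes induced by T cell receptor signals had 8 positive values among 16 tested and a median of -0.02, with Cd5 itself at 0.60 (SE 0.43), the inhibitor gene Nfkbia at -0.52 (SE 0.38) and the early gene Nr4a1 at 0.74 (SE 0.74). For Cd5 the log2 ratio of levels was 1.43 in plate 2 and 0.05 in plate 3. Genes of activated and memory cells had 7 tested members with a median of 0.01, with Id2 at -1.07 (SE 0.78) and Crip1 at -0.58 (SE 0.48). Cycling genes had 5 tested members with a median of -0.23, with Hmgb2 at -0.69 (SE 0.71). Of 24 genes of quiescence and homing to lymph nodes, 23 were tested, 13 were positive and the median was 0.01. All 8 general T cell genes in the table were tested, with 2 positive and a median of -0.06. Of 5 neighbours of Foxp3 on chromosome X, only Gpkow was tested, at -0.64. No gene of these lists was called by edgeR.

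Taken apart, the 11 cells with 2 or more Foxp3 UMIs were compared with their own 33 matched cells in a fit of 8 sums. Of 1428 genes tested, 0 passed an adjusted p of 0.05 in edgeR (0%), and 51 had an unadjusted p under 0.05 (3.57%), of which 17 were higher (1.19%). Among 12140 genes in the unfiltered DESeq2 Wald test, 0 were called and 86 were below that unadjusted p. The filter of the edgeR fit left 4 of the 29 regulatory genes, 3 of them positive, with a median log2 fold change of 0.86 against -0.06 over all genes tested. Of these, Tnfrsf18 passed the filter only through the cells with 2 or more UMIs, so the 4 genes are not a fair sample of the list. Il2ra, Ikzf2 and Ctla4 were below the filter here. Pooled over plates, Ikzf2 had 24 UMIs in the 11 cells and 3 in the matched cells, a ratio of 23.6 (7.17 to 122), and Il2ra had 12 and 1, a ratio of 35.4 (5.24 to 1514).

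Tnfrsf18 was the regulatory gene of smallest p in the cells with 2 or more UMIs. It had 8 and 6 UMIs in these cells of plates 2 and 3, against 0 and 2 in their matched cells, and the level was 188 CPM in both plates. Its fitted log2 fold change was 4.18 (SE 1.61, edgeR adjusted p = 0.982). In the cells with 1 UMI the fitted value was -2.10 (SE 1.82), and the difference between these contrasts was 6.28 (SE 2.44, edgeR adjusted p = 0.999). Folr4 had 23 and 14 UMIs against 45 and 5, with a log2 fold change of 1.24 (SE 0.88). Samhd1, which breaks down nucleotides, had 0.48 (SE 0.50), and Gbp4 had 0 and 3 UMIs against 20 and 15.

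Il2rg had higher levels in both plates, which the rule for naming genes required. Its levels were 1855 and 1910 CPM in the cells with 2 or more UMIs, against 892 and 1289 CPM in the matched cells. Its log2 fold change was 0.78 (SE 0.28), and 0.094 when the cells were set against all cells of the plate without Foxp3. The interleukin 2 and STAT5 list to which it belongs had 3 positive values among 7 tested and a median of -0.14, with Il4ra, the interleukin 4 receptor, at -3.09 (SE 1.499). Summed over its 15 genes in the table, Il2rg included, the list had 4716 CPM in these cells of plate 2 against 3545 CPM in the matched cells. In plate 3 it had 4284 against 3227 CPM. Cblb, an E3 ubiquitin ligase that damps T cell receptor signals, had 14 and 8 UMIs against 7 and 2, but all 8 of plate 3 came from a single cell. Smc4, a condensin subunit, had a log2 fold change of 1.30 (SE 0.41). None of these passed the test, with edgeR adjusted p of 0.982 for each.

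The ribosomal RNAs Rn45s, the precursor of cytoplasmic ribosomal RNA, and mt-Rnr1, the mitochondrial 12S RNA, also had higher summed levels in these cells. Rn45s made up 7.93% of the summed UMIs of the cells with 2 or more UMIs in plate 2 and 5.52% in plate 3, against 5.72% and 2.03% in their matched cells. Single cells ranged from 0.631% to 16.7%, against 0.378% to 21.0% in the matched cells, so the groups overlap. The median Rn45s share per cell was 5.05% against 3.93% in the matched cells of plate 2. In plate 3 it was lower, 1.08% against 1.46%. A single cell of plate 3 held 1498 of the 1764 Rn45s UMIs summed there. For mt-Rnr1 a single cell of plate 3 held 322 of 427 UMIs. The log2 fold change was 0.91 (SE 0.28) for Rn45s and 0.87 (SE 0.27) for mt-Rnr1. In a fit of the 4 sums of these cells and their matched cells alone, both passed in edgeR, with adjusted p of 0.000139 and 0.0355, whereas the DESeq2 Wald test and the other fits called neither, except that mt-Rnr1 also passed without cells holding over 2% of their UMIs in the long noncoding RNA Kcnq1ot1 (adjusted p = 0.0150). Rn45s is a repeated locus, and the sources used here do not say how its reads were assigned.

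Some genes of naive T cells had negative values in the cells with 2 or more UMIs. Igfbp4, a binding protein of insulin-like growth factors and a naive T cell gene, had 9 and 18 UMIs in these cells of plates 2 and 3, against 85 and 75 in their matched cells, with a log2 fold change of -1.16 (SE 0.49). Il7r had 3 and 12 against 65 and 39, with -1.25 (SE 0.71). Tcf7, a factor of naive and memory cells, went the other way with 0.81 (SE 0.55). Over all genes tested, 760 of 1428 values were negative. Among 22 tested members of the quiescence and homing list, 13 were negative and the median was -0.26. Of 12 tested genes known to be lower in regulatory T cells, 7 were negative and the median was -0.22. Both shares are near that of all genes. The summed level of the latter list was 3331 CPM in these cells of plate 2, against 5173 CPM in their matched cells. In plate 3 it went the other way, with 6192 against 4472 CPM. Among 11 tested genes induced by T cell receptor signals, 8 were positive with a median of 0.34, and Cd5 had 1.18 (SE 0.71). Of its 20 UMIs in these cells of plate 2, 12 came from a single cell, well 162. The factors that act with Foxp3 had 4 positive values among 14 tested and a median of -0.20, with Nfatc3, a calcium-dependent factor, at -2.06 (SE 0.95) and Bach2 at -1.46 (SE 0.89). No member passed the test.

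The genes of smallest p that were lower in these cells lay outside the lists. Cd97, an adhesion receptor of leukocytes, had 2 and 1 UMIs in the cells with 2 or more UMIs, against 44 and 22, with a log2 fold change of -2.89 (SE 0.89). Zfp36, which promotes decay of cytokine mRNAs, had 2 and 3 against 26 and 54. Ube2d3, a ubiquitin-conjugating enzyme, had 5 and 3 against 54 and 41, and mtNd4, a subunit of mitochondrial complex I, had a log2 fold change of -0.54 (SE 0.17). Dpp9, a dipeptidyl peptidase, had no UMI in either plate against 20 and 14, and Gabarapl2, an autophagy gene, had none against 14 and 10. The matched cells held about 3 times as many UMIs in all, and none of the 6 genes passed the test. That each was lower in both plates was required by the rule for naming genes.

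For the 45 cells with 1 UMI, none of the 1428 genes passed in edgeR (0%), and 8 had an unadjusted p below 0.05. The unfiltered DESeq2 Wald test also called 0, with 25 of its 12140 genes below that p. Only 4 of the 29 regulatory genes passed the filter, Il2ra and Ikzf2 not among them, with 1 positive value and a median of -0.59, against 650 positive values and a median of -0.05 over all 1428 genes. Summed over all 29 genes the list was 1.10 times its level in the matched cells (0.943 to 1.28), and 0.820 times (0.689 to 0.973) without well 46. That well was left out as the highest for this list, while the highest matched cell stayed in. The second ratio is lowered by this choice and shows no deficit of the list. Rn45s was the gene of smallest p, with 2.52% and 1.94% of the summed UMIs of plates 2 and 3 in these cells, against 9.74% and 2.67% in their matched cells. The log2 fold change was -1.33 (SE 0.29, edgeR adjusted p = 0.389). A single matched cell with 50.8% of its UMIs in Rn45s lies in plate 3. The median share per cell in that plate was 1.06% in the cells with 1 UMI and 1.27% in the matched cells.

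The difference between the contrasts, that of the cells with 2 or more UMIs minus that of the cells with 1 UMI, had 0 of 1428 genes past the threshold in edgeR (0%), and 32 below an unadjusted p of 0.05. The unfiltered DESeq2 Wald test called 0, with 54 of its 12140 genes below that p. Rn45s was nearest to it, with 2.25 (SE 0.40, adjusted p = 0.0515 in edgeR). It passed with DESeq2 size factors, without the filter, without cells rich in Kcnq1ot1 and without wells 162 and 46. For Il2rg the difference was 1.16 (SE 0.40) and for Smc4 1.83 (SE 0.57), neither past the threshold. Whether Rn45s differed between the contrasts thus depended on the setting.

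Surface CD5 of the Foxp3 cells spread over most of the range of their plates. In plate 2 it ran from 16345 to 112403 fluorescence units with a median of 71980 in Foxp3 cells, and from 5594 to 115879 with a median of 43589 in matched cells. In plate 3 it ran from 2557 to 119464 with a median of 49389 in Foxp3 cells, and from 1120 to 137432 with a median of 42348.5 in matched cells. The log2 ratio of the medians was 0.72 in plate 2 and 0.22 in plate 3, a mean of 0.47 ± 0.35 over the 2 plates (SD). A two-sided exact permutation test that flips the sign of each plate gave p = 0.5, the smallest that 2 plates allow. The groups overlap in both plates.

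The plate 2 value depends on which well each CD5 value belongs to. The Spearman correlation of Cd5 transcripts per UMI with CD5 fluorescence over cells was 0.39 in plate 1 (172 cells), 0.26 in plate 3 (324 cells) and 0.08 in plate 2 (201 cells), and when each cell of plate 2 took the CD5 of the well numbered 1 higher it was 0.32 (170 cells). Set against those next values, the log2 ratio of plate 2 was -0.02, from the 6 Foxp3 cells that then have a value, and the mean of the plates was 0.10 (exact permutation p = 1). With a single matched cell for each Foxp3 cell the mean was 0.06, and the plate 2 value was -0.10. The direction of CD5 in plate 2 is thus not settled by these data, and only plate 3 was positive in every setting.

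Among the cells with 2 or more Foxp3 UMIs, CD5 was 17585, 17909, 62821, 81139, 110704 and 112403 in the 6 cells of plate 2, against a median of 49925 in their matched cells. In plate 3 it was 22851, 37889, 58749, 64567 and 83648, against a median of 39060. The log2 ratios were 0.53 and 0.59, and that of plate 2 was -0.11 with the CD5 values of the next wells, which 4 of the 6 cells have. By the authors' CD5 classes, the 56 Foxp3 cells held 17 Low, 20 Middle and 19 High cells (30.4%, 35.7% and 33.9%), against 43, 88 and 37 (25.6%, 52.4% and 22.0%) of the 168 matched cells. In plate 3 Foxp3 was found in 17.5% of 80 Low cells (9.91% to 27.6%), 10.9% of 174 Middle cells (6.70% to 16.5%) and 21.4% of 70 High cells (12.5% to 32.9%). These intervals overlap, so no order of the classes is shown.

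**Figure D5:**
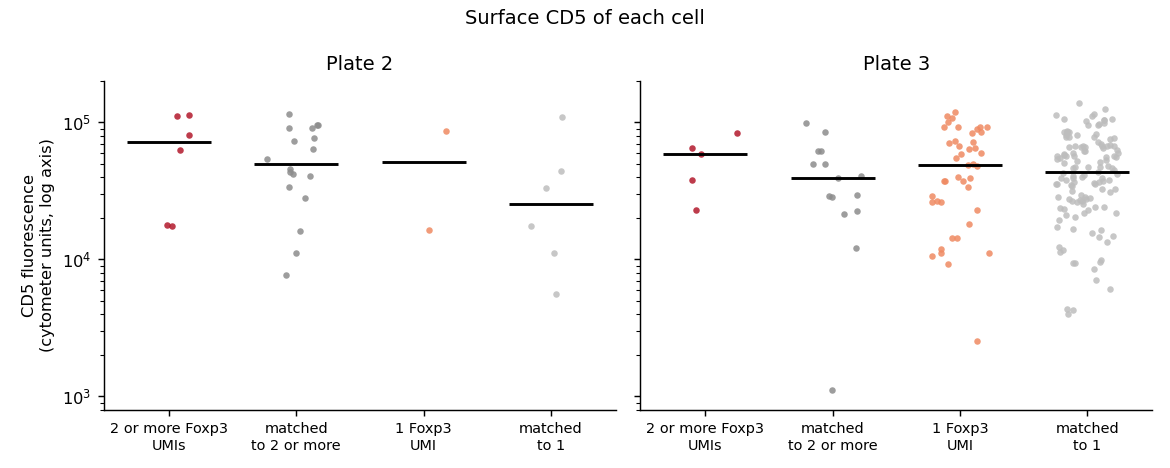
CD5 fluorescence of each cell in cytometer units (vertical log axis) for cells with 2 or more Foxp3 UMIs, their matched cells, cells with 1 UMI and their matched cells, in plates 2 and 3. Points are cells and black lines are medians. The medians of the cells with 2 or more UMIs are 71980 in plate 2 and 58749 in plate 3, above 49925 and 39060 in their matched cells, and the points overlap.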

How the data were processed

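The values deposited by the authors are expected counts (UMI counts corrected for tag collisions) of 697 cells, over 14355 genes plus 84 spike-ins. Of the values above 0, 8.56% were not whole numbers. Reads were mapped with BWA to mm10, per the submitters' processing notes, with the BWA version not given in the sources used here. CD5 fluorescence was deposited as a signal in cytometer units for every cell, and the authors also deposited a CD5 class per cell. Cell names end in a plate number, which was matched to the plate in the labels.

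Each Foxp3 cell was matched within its plate to 3 cells with 0 Foxp3 UMIs by log total of UMIs without spike-ins and Foxp3, without replacement and from the deepest cell down. Counts were summed per plate and arm, rounded to whole numbers and tested with edgeR 4.0.16 (TMM, filterByExpr, quasi-likelihood, plate as block) in R 4.3.3, two-sided, with Benjamini-Hochberg adjustment at 0.05. Spike-ins (19.6% of counts) entered no fit. The 4-sum fit had 1 residual and 14.3 prior degrees of freedom, so a gene's dispersion came mostly from other genes, and the 8-sum fit had 3 and 12.9. The arms of a plate share a library, and their deviations from the arm means correlated at 0.389 over 724 genes. Ratios of summed UMIs carry exact conditional binomial intervals, and shares carry Clopper-Pearson intervals, both at 95%. Where no count was seen, up to 3 counts were taken as possible. DESeq2 1.42.0 was an alternative, and Python 3.11.15, numpy 2.4.6, pandas 2.3.3, scipy 1.17.1 and matplotlib 3.10.9 were used. The scripts were tested on counts simulated at a lower dispersion than the 0.088 (4 sums) and 0.133 (8 sums) fitted here. Power for sparse genes such as the markers was therefore not measured. Positions come from GENCODE M21, and barcodes from the deposited primer sheet.

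The cells, the gene lists and the tests were chosen with earlier results of these data known. The rule names Foxp3, the 3 markers, and the members of smallest p, up to 4, of a list. It also names up to 12 genes per direction that pass with the same sign in both plates. Where too few pass, it names up to 6 of smallest p, again only those with the same sign in both plates. Some genes that the rule names are not reported here.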

Additional observations from a re-analysis of the deposited data

How the results depend on the processing

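The count of genes called between Foxp3 cells and matched cells was 0. With 5 matched cells it was 1, and with all zero cells of the plate 1, both times Il2ra, which the filter kept through the Foxp3 cells alone. Between cells with 2 or more Foxp3 UMIs and matched cells it was 0, and it was 2 in their own 4 sums and 1 without cells over 2% Kcnq1ot1, which leaves out 68 cells, 4 of them Foxp3 cells. For cells with 1 UMI it was 0, and it was 1 with DESeq2 size factors, 1 without a filter, 1 without Kcnq1ot1-rich cells and 1 without the top cell of each plate. For the difference of the contrasts it was 0, and it was 1, 1, 2 and 1 in the same 4 settings. Without the replicate block the count was 0 in all 4 comparisons, with 47, 35, 6 and 30 genes below an unadjusted p of 0.05. A fit without a plate was not possible for gene counts, since 1 sum per arm leaves no residual degrees of freedom. The cause of these changes was not tested.

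The log2 ratio of median CD5, 0.47, was 0.098 when plate 2 took each next well's CD5 and 0.058 with 1 matched cell, and from 0.22 to 0.72 without 1 plate. The share of cells with Foxp3 over all plates, 8.03%, ranged from 2.14% to 10.7% without 1 plate. Some signs turned round without a call. Cd5 transcripts had a log2 fold change of -0.18 in Foxp3 cells thinned to 1 depth. Il2rg, at 0.21, had -0.094 when thinned and from -0.067 to 0.69 without 1 plate. Of the gene counts, CD5 ratios and Foxp3 shares over the settings, 27 stayed near the value reported and 16 moved. Of the values of single genes and marker shares, 402 kept their side and direction, 13 passed a threshold that they had missed, 5 moved by more than their error and 3 turned round. Alternatives without the top cells, with the 4 sums of the cells with 2 or more UMIs alone and with these cells set against all zero cells were chosen after seeing the data. Depth limits the markers: taking up to 3 counts as possible, a gene with no UMI in the 56 Foxp3 cells could still have been seen in up to 5.36% of them.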
